A study of Mus musculus with 6 samples.

Results

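Small ribosomal subunit assembly factors are the proteins that fold, modify, cut and export the RNA precursor of the small (40S) ribosomal subunit. The 53 factors described here were chosen by gene symbol, as components of the small-subunit processome and of later 40S maturation, from the 46452 genes of the deposited table. The choice was made with earlier results of these data known. All 53 symbols were present as single rows, and all 53 passed the expression filter of a mean of at least 1 FPKM, fragments per kilobase of gene scaled for library size, over the 6 libraries.

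Hearts were taken from mice aged 10 days. One group of 3 libraries carries the genotype label Nat10-CKO, which names a conditional knockout of Nat10, and the other group of 3 carries the label Nat10flox/flox, which names loxP-flanked Nat10 alleles. The labels call the replicates independent and biological, and give neither the Cre driver nor the deleted exons nor the strain. The series asks what NAT10 does in heart development. NAT10 is itself a processome component, an RNA acetyltransferase that acts on 18S ribosomal RNA.

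The processome assembles on the nascent precursor in the nucleolus. The UTP-A complex binds the 5′ leader first, UTP-B and the U3 small nucleolar ribonucleoprotein (U3 snoRNP) follow, and U3 base-pairs with the precursor. GTPases, RNA helicases and nucleases then remodel and cut it, and late factors carry the pre-40S particle to the cytoplasm, where the last cut makes mature 18S RNA. Heart muscle grows after birth mostly by enlargement of its cells, which requires ribosome production.

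Nat10 itself had the higher level in libraries labelled Nat10-CKO, at 8.28, 8.66 and 10.2 FPKM, against 3.75, 4.18 and 4.71 FPKM in the Nat10flox/flox libraries (log2 fold change 0.94 ± 0.12 SE, limma adjusted p = 0.00142). The target gene therefore goes against its label, and every direction below refers to libraries as labelled. The value is for the whole gene, so reads from exons or cells without the deletion are part of it. The cause of the higher level was not tested, and a swap of the labels could not be checked from whole-gene values. The libraries held 31155521 to 38051266 reads assigned to genes. The mitochondrial chromosome took 7.56% to 9.26% of reads in Nat10-CKO and 16.6% to 18.3% in Nat10flox/flox libraries. Nat10flox/flox replicate 1 and Nat10-CKO replicate 1 stood apart from their groups on the second and the third principal component. Their within-group correlations of log2 values were 0.948 and 0.951 for the first of these libraries and 0.968 and 0.959 for the second, against 0.985 and 0.987 for the other two pairs.

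Cell markers also differed between groups. Summed levels of 6 cardiomyocyte markers were 9456 to 16450 FPKM in Nat10-CKO and 16520 to 20130 FPKM in Nat10flox/flox libraries, so the tissue label matched its defining markers. The 6 endothelial markers summed to 150 to 163 FPKM in Nat10-CKO against 258 to 317 FPKM in Nat10flox/flox libraries, and the 6 smooth muscle and pericyte markers to 118 to 155 against 239 to 279 FPKM. The 6 fibroblast markers summed to 335 to 613 FPKM in Nat10-CKO and 300.2 to 331 FPKM in Nat10flox/flox libraries. Summed levels of the 4 cycling-cell markers were 0.901 to 2.80 FPKM in Nat10-CKO and 7.16 to 12.2 FPKM in Nat10flox/flox libraries. Those of the 5 red blood cell markers were 423 to 535 against 689 to 1780 FPKM, of the 6 lymphocyte markers 7.15 to 7.92 against 8.75 to 21.4 FPKM, and of the 6 macrophage markers 219 to 259 against 214 to 292 FPKM. No marker was at 0 in every library. The part of these shifts in the results was not tested, and in whole hearts a change in the number of cells of a type and a change in RNA per cell cannot be told apart.

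Assembly factor genes were higher in the libraries labelled Nat10-CKO for 47 of 53 members, lower for 1 (Imp3), and did not pass the threshold for 5 (Wdr36, Ddx52, Rcl1, Nol10 and Riok1). Of all 11996 genes tested, 24.4% were called higher, 16.0% lower and 40.5% in either direction (limma on log2(FPKM + 1), Benjamini-Hochberg adjusted p under 0.05 over all tested genes). The median log2 fold change stood at 1.09 over the 53 members and 0.03 over all tested genes. A log2 fold change of at least 1 was reached by 28 called members, against 8.00% of all tested genes. Aatf, counted in the 47 and the 28, passed the expression filter only through its level in the Nat10-CKO libraries. Every Nat10-CKO library lay above every Nat10flox/flox library for 49 members, which held for 31.5% of all tested genes. The groups did not overlap in either direction for 50 members, against 55.9% of all tested genes. With Nat10flox/flox replicate 1 and Nat10-CKO replicate 1 both left out, 45 members were called higher and 1 lower. In that fit 24.4% of all tested genes were called higher.

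**Figure D1:**
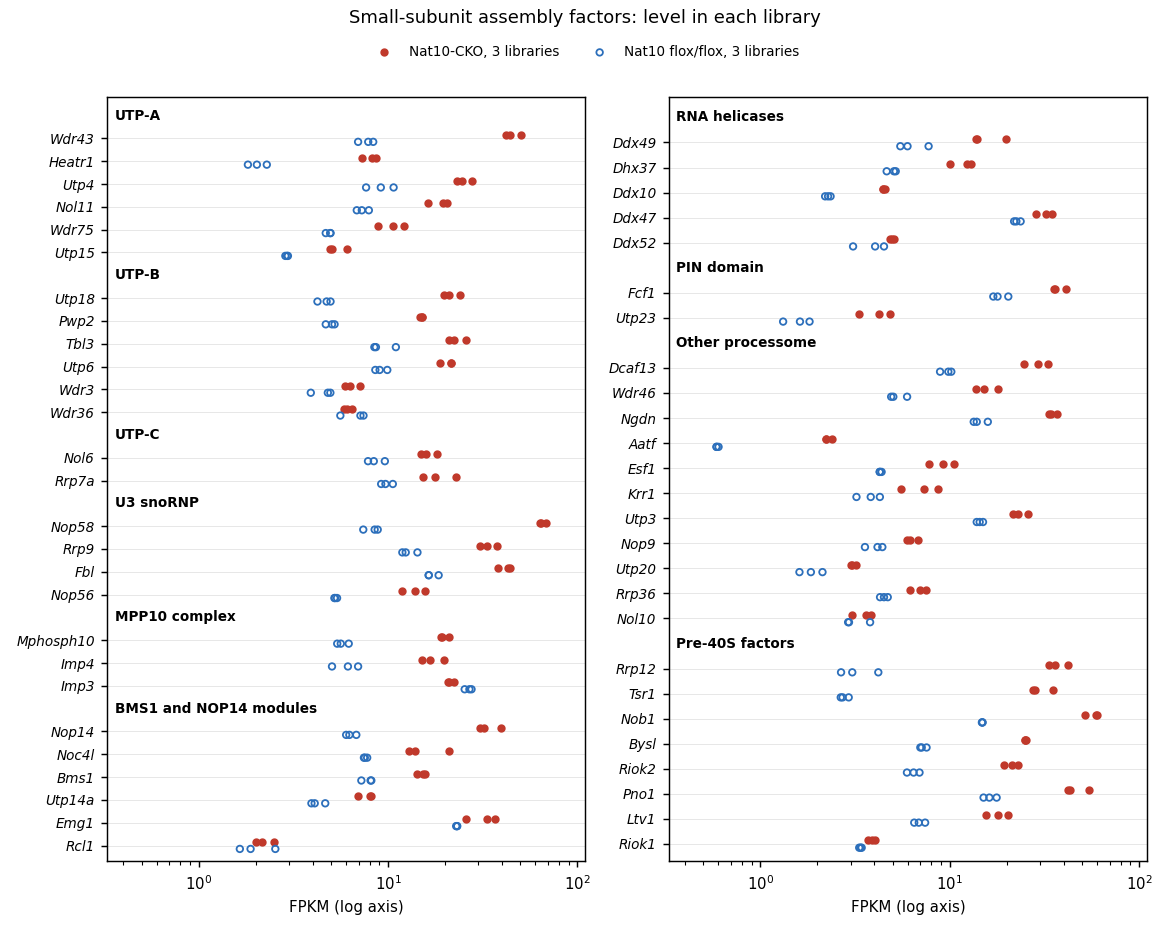
Level of each of the 53 assembly factors in each library, as FPKM on a log axis, grouped by role and ordered by log2 fold change within a role. Filled red points are the 3 Nat10-CKO libraries and open blue points the 3 Nat10flox/flox libraries. The red points lie to the right of all blue points for 49 genes, and the largest separations are those of Rrp12, Tsr1 and Nop58.

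Ratios of mean FPKM exceeded 2 for 33 members and 4 for 6 of these, and lay between 1.5 and 2 for 11 others. The summed level of all 53 genes was 1107, 1010 and 1040 FPKM in the Nat10-CKO libraries and 391, 413 and 434 FPKM in the Nat10flox/flox libraries. Group means ran from 2.23 FPKM (Rcl1) to 65.1 FPKM (Nop58) in Nat10-CKO and from 0.593 FPKM (Aatf) to 26.6 FPKM (Imp3) in Nat10flox/flox libraries. Members were counted with 137 to 12065 reads per library. Across the 53 genes, the log2 fold change and the mean level in Nat10flox/flox libraries had a Spearman correlation of 0.14, a description over genes that share the same 6 libraries.

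Promoters of several members are shown as a description, and a link between a motif and the levels was not tested. RefSeq promoter windows (GRCm38.p6 table, 250 bases before to 50 after the annotated start) were at hand for 44 of the 53 members. The E-box CACGTG, the core sequence bound by MYC and other basic helix-loop-helix factors, was found in 12 of the 44 (27.3%), on either strand, against 12.0% of 8839 tested protein-coding genes with a window and 8.09% of all 27025 genes with one. The letters CGGAAG, the core of sites of ETS-family factors, were found on either strand in 29 of the 44 (65.9%), against 35.8% of the tested and 18.8% of all genes. TATAAA occurred in 2 of the 44 (4.55%), against 8.76% and 15.7%. A match is a string of letters and shows no binding.

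The 4 windows that follow are those of the members with an E-box and the smallest adjusted p among the genes that the naming rule picks (the first 3 per role by adjusted p, which leaves out Pno1), and the fifth is that of Imp3, the member that was lower, added after its values were seen. Each runs 5′ to 3′ on the gene's strand from 250 bases before to 30 bases after the RefSeq start. Capitals mark CACGTG and CGGAAG or its reverse complement CTTCCG. Each window matched GRCm39 exactly once, at chr11:74788656-74788935 (plus strand) for Tsr1, chr17:71922960-71923239 (plus) for Wdr43, chr11:93776563-93776842 (minus) for Utp18, chr17:34159447-34159726 (plus) for Wdr46 and chr9:56844534-56844813 (plus) for Imp3.
Tsr1: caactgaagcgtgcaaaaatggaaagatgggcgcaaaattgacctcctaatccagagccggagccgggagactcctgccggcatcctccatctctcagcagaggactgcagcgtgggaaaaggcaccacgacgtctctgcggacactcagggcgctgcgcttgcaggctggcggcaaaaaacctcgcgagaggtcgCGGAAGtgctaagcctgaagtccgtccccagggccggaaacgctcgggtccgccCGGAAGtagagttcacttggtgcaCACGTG
Wdr43: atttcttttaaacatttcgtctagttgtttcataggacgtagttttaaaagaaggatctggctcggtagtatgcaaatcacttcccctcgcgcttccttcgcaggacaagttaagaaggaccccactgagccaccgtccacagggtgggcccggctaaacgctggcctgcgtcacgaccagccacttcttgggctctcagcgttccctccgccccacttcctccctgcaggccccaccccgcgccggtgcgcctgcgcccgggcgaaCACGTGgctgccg
Utp18: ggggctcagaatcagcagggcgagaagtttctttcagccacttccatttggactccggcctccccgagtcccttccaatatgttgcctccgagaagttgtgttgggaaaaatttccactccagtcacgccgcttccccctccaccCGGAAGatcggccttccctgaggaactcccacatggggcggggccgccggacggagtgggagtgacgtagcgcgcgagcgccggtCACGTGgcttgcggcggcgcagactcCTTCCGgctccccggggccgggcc
Wdr46: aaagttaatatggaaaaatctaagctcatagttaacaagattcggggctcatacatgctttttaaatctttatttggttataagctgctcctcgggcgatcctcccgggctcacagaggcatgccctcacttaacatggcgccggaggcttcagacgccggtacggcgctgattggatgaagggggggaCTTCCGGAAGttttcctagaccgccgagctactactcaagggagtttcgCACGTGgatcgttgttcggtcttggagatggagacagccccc
Imp3: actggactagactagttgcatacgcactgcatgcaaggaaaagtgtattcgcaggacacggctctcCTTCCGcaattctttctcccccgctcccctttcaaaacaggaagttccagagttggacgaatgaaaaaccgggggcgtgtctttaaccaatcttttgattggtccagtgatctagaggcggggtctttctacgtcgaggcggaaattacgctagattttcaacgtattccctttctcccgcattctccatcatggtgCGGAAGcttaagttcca

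Each of the 12 windows with an E-box held 1 of them. In 6 windows it began before the RefSeq start, and in the other 6 between 16 and 38 bases after it, among them Tsr1 (base 25) and Wdr43 (base 18). The deposited table starts Wdr43 (at 71923175) and Wdr46 (at 34159608) before the RefSeq start. The Wdr46 E-box, before the RefSeq start, thus lies inside the gene of the table. All 12 of these genes were called higher, at log2 fold changes of 0.52 to 3.04 (median 1.37). Of the 32 members with a window and no E-box, 27 were called higher, at log2 fold changes of -0.30 to 2.84 (median 0.90). Of the 9 members without a window, 8 were called higher, among them Rrp12, the member with the largest log2 fold change. Of all tested genes, 24.4% were called higher. The difference between these sets was not tested. No such split was made for CGGAAG, which was found in members from Imp3 (-0.30) to Tsr1 (3.04). The Imp3 window held no E-box and CGGAAG in both orientations.

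**Figure D2:**
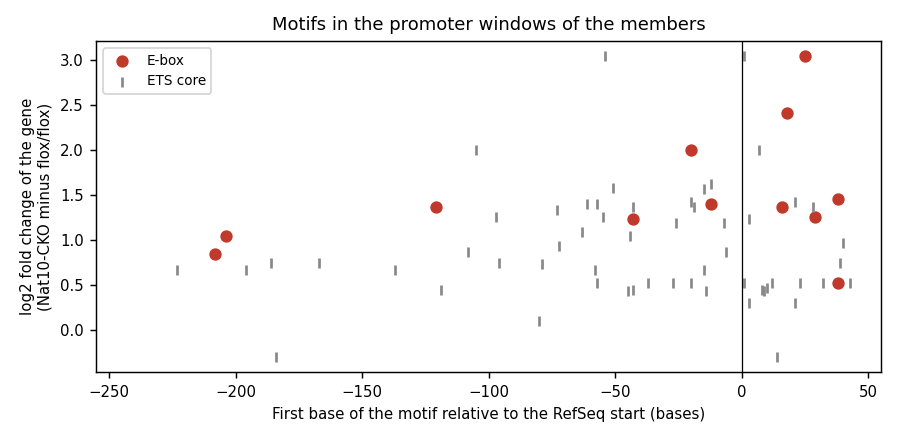
Position of each motif in the promoter windows of the 44 members with a window (x axis, bases from the RefSeq start to the motif's first base) against the gene's log2 fold change, Nat10-CKO minus Nat10flox/flox (y axis). Red points are the 12 E-boxes, of which 6 lie after the start, and grey ticks are CGGAAG on either strand.

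All 6 UTP-A genes were higher in the libraries labelled Nat10-CKO, with log2 fold changes of 0.69 to 2.41. Here and in each role below, the share of all tested genes called higher, 24.4%, is the background. UTP-A, which binds the start of the precursor and is also needed for its transcription by RNA polymerase I, is made of Wdr43, Heatr1, Nol11, Utp4, Wdr75 and Utp15 products. Wdr43 (gene ID 72515, chromosome 17, 71923175 to 71966026, plus strand, GRCm39) had 50.5, 43.9 and 42.1 FPKM in Nat10-CKO, against 6.95, 7.86 and 8.35 FPKM in Nat10flox/flox libraries. Its lowest Nat10-CKO library was thus far above its highest Nat10flox/flox library, and the means of 45.5 ± 4.43 and 7.72 ± 0.710 FPKM (SD, n = 3 each) differed 5.90-fold (limma adjusted p = 0.000136). Heatr1, a large HEAT-repeat scaffold, had 8.18, 7.25 and 8.68 FPKM in Nat10-CKO and 1.82, 2.29 and 2.03 FPKM in Nat10flox/flox libraries (3.93-fold). Nol11 stood at 20.4, 16.2 and 19.4 FPKM against 6.84, 7.27 and 7.92 FPKM (2.54-fold). The groups did not overlap for any of the 6 genes, which held in either direction for 55.9% of all tested genes. Utp15 had the smallest ratio, 1.83.

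UTP-B genes were higher for 5 of 6, and the exception was Wdr36. UTP-B proteins contact the 5′ leader and the U3 snoRNP and most carry WD40 repeats. Utp18 had 24.1, 19.7 and 20.9 FPKM in Nat10-CKO and 4.24, 4.97 and 4.74 FPKM in Nat10flox/flox libraries (4.64-fold, log2 fold change 2.00 ± 0.11 SE). Pwp2, at 15.2, 15.1 and 14.7 FPKM against 4.69, 5.06 and 5.22 FPKM, was 3.01 times as high and varied little within either group. Utp6 had 21.4, 18.9 and 21.4 FPKM in Nat10-CKO and 8.57, 9.03 and 9.91 FPKM in Nat10flox/flox libraries (2.24-fold), and Tbl3 was 2.46 times as high.

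Wdr36 and Wdr3, also of UTP-B, had the smallest differences in that complex. Wdr36 had 5.88, 6.47 and 6.05 FPKM in Nat10-CKO and 5.60, 7.15 and 7.42 FPKM in Nat10flox/flox libraries. The groups overlapped, and the log2 fold change of -0.11 ± 0.12 SE did not pass (limma adjusted p = 0.505). When protein-coding genes were rescaled to one total per library its sign turned (0.03). Wdr3 had 7.15, 6.31 and 5.96 FPKM against 3.91, 4.81 and 4.96 FPKM, a 1.42-fold difference with a limma adjusted p of 0.0271. That call depended on single libraries: the adjusted p was 0.0531 without Nat10-CKO replicate 1, 0.0675 without Nat10-CKO replicate 2, and 0.0876, 0.0635 and 0.0506 without Nat10flox/flox replicate 1, 2 and 3. With both libraries that stand apart left out, its log2 fold change was 0.28 in place of 0.43 (limma adjusted p = 0.104). It was 0.27 without mitochondrially encoded genes (limma adjusted p = 0.12), and the call was also lost without the filter on low values (0.0616) and under quantile normalization (0.0566).

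**Figure D3:**
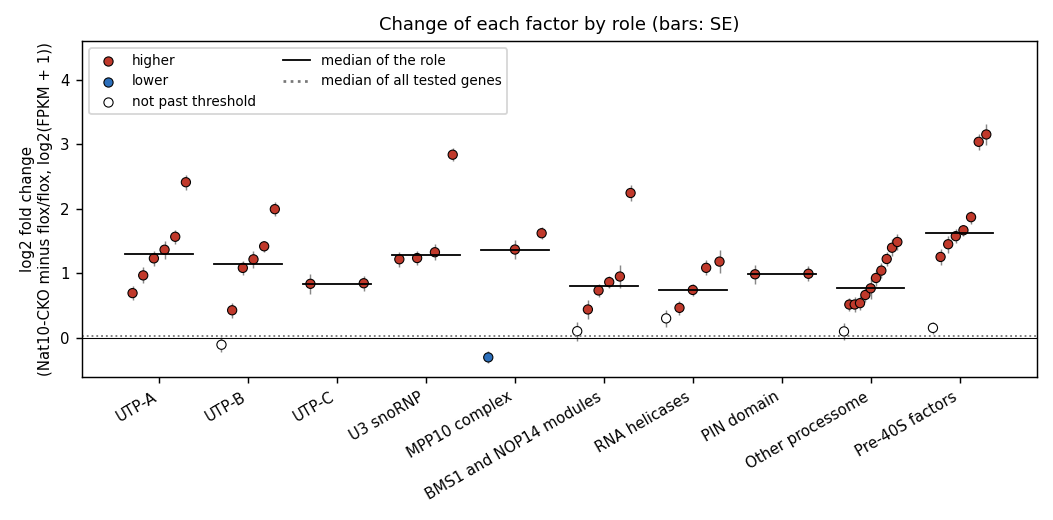
Log2 fold change of each factor (Nat10-CKO minus Nat10flox/flox, on log2(FPKM + 1)), by role, with bars for the SE. Red points were called higher, the blue point (Imp3) lower, and the 5 white points did not pass the threshold. Short lines are role medians, highest for the pre-40S factors at 1.62, and the dotted line is the median of all tested genes at 0.03.

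The 2 genes of UTP-C, a module that also holds casein kinase 2, were both higher by similar amounts. Nol6 had 18.2, 14.9 and 15.8 FPKM in Nat10-CKO and 7.84, 8.41 and 9.62 FPKM in Nat10flox/flox libraries (1.89-fold, limma adjusted p = 0.00224). Rrp7a, its direct partner, had 22.9, 17.6 and 15.3 FPKM against 10.6, 9.20 and 9.69 FPKM (1.89-fold, limma adjusted p = 0.00639). For both genes Nat10-CKO replicate 1 gave the highest value.

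All 4 genes of the U3 snoRNP proteins were higher. Nop58 (gene ID 55989, chromosome 1, 59724134 to 59750669, plus strand), a core protein of box C/D particles, had 67.9, 63.5 and 63.9 FPKM in Nat10-CKO and 7.40, 8.50 and 8.82 FPKM in Nat10flox/flox libraries. The groups were far apart, and the log2 fold change was 2.84 ± 0.10 SE (limma adjusted p = 7.65e-05). Fbl, the gene of fibrillarin, the 2′-O-methyltransferase of the same particles, had 43, 44 and 38 FPKM against 16.4, 16.4 and 18.5 FPKM (2.44-fold). Rrp9, the protein specific to U3, had 30.6, 33.3 and 37.6 FPKM in Nat10-CKO and 12.4, 11.9 and 14.3 FPKM in Nat10flox/flox libraries (2.63-fold). Nop56, the partner and paralogue of Nop58, was 2.60 times as high. Nop56 and Nop58 sit together in one particle, yet their ratios of mean FPKM were 2.60 and 7.90; their difference was not tested.

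Genes of the MPP10 complex, which seats U3 on the precursor, did not move one way. Mphosph10, the scaffold, had 21, 19 and 19.3 FPKM in Nat10-CKO and 5.39, 6.20 and 5.63 FPKM in Nat10flox/flox libraries (3.44-fold, limma adjusted p = 0.000193). Imp4 had 19.8, 16.6 and 15.2 FPKM against 5.06, 6.95 and 6.14 FPKM (2.85-fold). Both groups of values were well separated in each of these genes.

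Imp3 (gene ID 102462, chromosome 9, 56844784 to 56845682, plus strand, a gene of 899 bases in the table) was the 1 member called lower. It had 22.3, 20.7 and 21.1 FPKM in Nat10-CKO, against 25.4, 27.6 and 26.9 FPKM in Nat10flox/flox libraries. The groups did not overlap, and the fold was 0.803 (log2 fold change -0.30 ± 0.09 SE, limma adjusted p = 0.0398). The call was lost, with adjusted p of 0.117 and 0.0849, without Nat10-CKO replicate 2 and 3, and with 0.0594, 0.135 and 0.111 without Nat10flox/flox replicate 1, 2 and 3. With protein-coding genes rescaled the adjusted p was 0.307 and the log2 fold change -0.15. Imp3 was the most abundant member per length in the Nat10flox/flox libraries.

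The GTPase and NOP14 modules were higher for 5 of 6 genes, Rcl1 being the exception. Nop14 (gene ID 75416, chromosome 5, 34795880 to 34817566, minus strand) had 39.3, 30.6 and 32.3 FPKM in Nat10-CKO and 6.01, 6.25 and 6.8 FPKM in Nat10flox/flox libraries (5.36-fold, limma adjusted p = 0.000164). Its partner Noc4l was 2.10 times as high, at 21.1 FPKM in Nat10-CKO replicate 1 and 13.9 and 12.9 FPKM in the others of that group, against 7.46 to 7.76 FPKM. Noc4l thus varied most among the Nat10-CKO libraries of all members, with a coefficient of variation of 27.9%.

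Bms1, the processome GTPase, had 15.7, 14.2 and 15.3 FPKM in Nat10-CKO and 7.23, 8.09 and 8.16 FPKM in Nat10flox/flox libraries (1.93-fold). Rcl1, which binds Bms1, had 2.51, 2.02 and 2.16 FPKM against 1.65, 1.88 and 2.54 FPKM. Rcl1 groups overlapped (log2 fold change 0.10 ± 0.15 SE, limma adjusted p = 0.597), and its sign turned, to -0.02 with mitochondrially encoded genes left out and to -0.05 without both libraries that stand apart. Utp14a, the activator of the helicase DHX37 as worked out for its yeast counterpart, had 6.94, 8.13 and 8.07 FPKM in Nat10-CKO and 3.94, 4.66 and 4.10 FPKM in Nat10flox/flox libraries (1.82-fold).

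Emg1, a methyltransferase of 18S ribosomal RNA, was higher 1.39-fold with uneven Nat10-CKO libraries. It had 25.9, 36.5 and 33.4 FPKM in Nat10-CKO and 23.1, 22.9 and 23.2 FPKM in Nat10flox/flox libraries (limma adjusted p = 0.0453). The adjusted p was 0.132 without Nat10-CKO replicate 2, 0.11 without Nat10-CKO replicate 3, and 0.098, 0.119 and 0.109 without Nat10flox/flox replicate 1, 2 and 3. The Emg1 call was also lost without the filter on low values (0.0824). It held without Nat10-CKO replicate 1, its lowest library of that group (log2 fold change 0.58, limma adjusted p = 0.0048). With both libraries that stand apart left out it held too (limma adjusted p = 0.0111). Its log2 fold change, 0.44, was 0.25 without mitochondrially encoded genes (limma adjusted p = 0.144) and 0.20 under quantile normalization (limma adjusted p = 0.256).

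RNA helicase genes were higher for 4 of 5. Dhx37, which unwinds U3 from the precursor, had 10.0, 12.9 and 12.3 FPKM in Nat10-CKO and 4.65, 5.08 and 5.19 FPKM in Nat10flox/flox libraries (2.36-fold, limma adjusted p = 0.000877). Ddx10 had 4.54, 4.43 and 4.47 FPKM against 2.28, 2.20 and 2.35 FPKM (1.97-fold), the most even Nat10-CKO values among the helicases. Ddx49 had 19.8, 14 and 13.8 FPKM in Nat10-CKO and 5.49, 5.99 and 7.74 FPKM in Nat10flox/flox libraries (2.48-fold). All 3 are DEAD-box or DEAH-box enzymes with named yeast counterparts in the processome.

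Ddx47 and Ddx52 showed the smallest differences of the helicases. Ddx47 was 1.40 times as high (limma adjusted p = 0.0158), a call lost without Nat10-CKO replicate 2 (0.0527), without Nat10flox/flox replicate 2 (0.059) and under quantile normalization (0.123). Its log2 fold change, 0.47, was 0.22 under quantile normalization and 0.28 without mitochondrially encoded genes, where the call held. Ddx52 had 4.97, 5.10 and 4.84 FPKM in Nat10-CKO and 3.09, 4.04 and 4.50 FPKM in Nat10flox/flox libraries. Its groups did not overlap, but the log2 fold change of 0.30 ± 0.13 SE missed the threshold (limma adjusted p = 0.105). It passed with array weights (0.0359) and with protein-coding genes rescaled (0.0279).

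Both PIN-domain genes were higher. Fcf1, the counterpart of the yeast nuclease Utp24, had 41.1, 35.6 and 36.2 FPKM in Nat10-CKO and 17.0, 17.9 and 20.4 FPKM in Nat10flox/flox libraries (2.04-fold, limma adjusted p = 0.00111). Utp23, a related protein that lacks nuclease activity in yeast, had 4.24, 4.87 and 3.34 FPKM against 1.82, 1.62 and 1.32 FPKM (2.61-fold, limma adjusted p = 0.00289). On the log2(FPKM + 1) scale, which understates low genes, their log2 fold changes were 0.99 and 0.99.

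Of the 11 other processome factors, 10 were higher. Dcaf13, a WD40 protein of the particle's core, had 32.9, 24.8 and 29.4 FPKM in Nat10-CKO and 8.90, 10.2 and 9.84 FPKM in Nat10flox/flox libraries (3.01-fold). Wdr46 had 18.1, 15.2 and 13.7 FPKM against 5.04, 4.91 and 5.96 FPKM (2.95-fold). Ngdn had 37.0, 34.1 and 33.4 FPKM in Nat10-CKO and 13.4, 13.9 and 15.9 FPKM in Nat10flox/flox libraries (2.42-fold). Aatf and Nol10 are the partners of Ngdn in a complex described in human cells. Aatf was 3.85 times as high, at 2.23 to 2.39 FPKM in Nat10-CKO and 0.587 to 0.602 FPKM in Nat10flox/flox libraries. This low level per length is set by the 20787 bases given as its length. Its Nat10flox/flox mean was below 1 FPKM, so Aatf passed the expression filter only through the Nat10-CKO group.

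Nol10, the third member of that complex, did not pass. It had 3.86, 3.62 and 3.04 FPKM in Nat10-CKO and 3.8, 2.91 and 2.94 FPKM in Nat10flox/flox libraries. The groups overlapped (log2 fold change 0.10 ± 0.13 SE, limma adjusted p = 0.565), and the sign turned with mitochondrially encoded genes left out (-0.05). Esf1, Krr1, Utp3, Utp20, Nop9 and Rrp36 were called higher, with folds of 1.53 (Rrp36) to 2.13 (Esf1). Krr1, an RNA-binding KH-domain protein, was the only one of these 6 to lose its call when both libraries that stand apart were left out (adjusted p = 0.0594 by limma).

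Pre-40S factors held the largest rises, with 7 of 8 genes higher (median log2 fold change 1.62). Rrp12 (gene ID 107094, chromosome 19, 41847922 to 41884592, minus strand), an export factor, had 42.1, 36.0 and 33.4 FPKM in Nat10-CKO and 3.06, 2.67 and 4.20 FPKM in Nat10flox/flox libraries. Its log2 fold change of 3.16 ± 0.16 SE was the largest of all members (11.2-fold, limma adjusted p = 0.000139), and 99.7% of tested genes had a lower one. Tsr1 (gene ID 104662, chromosome 11, 74788906 to 74800166, plus strand), a GTPase-like factor that blocks early joining of subunits, had 35.0, 27.4 and 28.1 FPKM against 2.66, 2.72 and 2.93 FPKM (10.9-fold, limma adjusted p = 7.65e-05). Bysl, the counterpart of yeast Enp1, had 25.0, 25.0 and 25.3 FPKM in Nat10-CKO and 7.0, 7.12 and 7.55 FPKM in Nat10flox/flox libraries (3.48-fold). Bysl values were the most even of the members within the Nat10-CKO group, with a coefficient of variation of 0.701%.

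Factors of the last cytoplasmic cut were higher too. Nob1, the nuclease that makes the 3′ end of 18S RNA, averaged 57.2 ± 4.36 FPKM in Nat10-CKO and 14.9 ± 0.0813 FPKM in Nat10flox/flox libraries (SD, n = 3 each, 3.85-fold). Its partner Pno1 averaged 46.7 ± 6.79 and 16.4 ± 1.34 FPKM (2.86-fold), and Ltv1 was 2.60 times as high. The paired kinase genes Riok2 and Riok1 differed in their calls. Riok2 averaged 21.2 ± 1.78 FPKM in Nat10-CKO and 6.44 ± 0.486 FPKM in Nat10flox/flox libraries (3.29-fold, limma adjusted p = 0.000262). Riok1 had 3.91, 4.05 and 3.70 FPKM against 3.43, 3.33 and 3.39 FPKM. Riok1 groups did not overlap, but its log2 fold change of 0.15 ± 0.09 SE missed the threshold (limma adjusted p = 0.206), which it passed with array weights (0.0371). The difference between the responses of Riok2 and Riok1 was not tested.

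Within groups, the members did not spread evenly over the replicates. Nat10-CKO replicate 1 was the highest of its group for 30 of 53 members, against 37.5% of all tested genes, and Nat10flox/flox replicate 1 was the lowest of its group for 35 of 53, against 45.1% of all tested genes. Nat10flox/flox replicate 3, which does not stand apart, was the highest of its group for 34 of 53, against 41.3% of all tested genes. The median coefficient of variation of the members was 10.1% in Nat10-CKO and 7.42% in Nat10flox/flox libraries, against 15.4% and 10.7% over all tested genes.

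Small nucleolar RNA genes lie inside 4 members on the same strand: 5 in Nop56, 4 in Nop58, 3 in Wdr43 and 1 in Tsr1. These 4 are 7.55% of the members, against 1.02% of the 22186 protein-coding genes of the table. Members lay on 19 chromosomes. The spans of 18 members overlapped a gene on the other strand, among them Tsr1, Nop14, Imp4, Heatr1, Nop56 and Emg1. The libraries were directional, but the sources used here do not say whether counting used the strand, and the levels of these members are uncertain. Nol10 and Rcl1 each overlapped another gene on their own strand, and reads shared with it are likewise uncertain. The same holds for reads shared with the small nucleolar RNA genes inside Nop56, Nop58, Wdr43 and Tsr1.

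A list of 32 other genes of the small-subunit pathway was higher for 24 and lower for 1, beside 24.4% and 16.0% of all tested genes. Nat10 itself, given above, is in the list and is counted among the 24. The median log2 fold change of the list was 0.73. Mybbp1a, a nucleolar partner of RNA polymerase I, had 105, 76.3 and 76.4 FPKM in Nat10-CKO and 18.1, 20.4 and 21.9 FPKM in Nat10flox/flox libraries (4.26-fold). Mtrex, the helicase that feeds precursor RNA to the exosome, had 36.2, 31.8 and 39.2 FPKM against 7.57, 8.64 and 8.99 FPKM (4.25-fold). Rbm19, an RNA-binding processome factor, and Rsl1d1, the counterpart of yeast Utp30, were 3.77 and 3.53 times as high. In contrast, Csnk2a1, a catalytic subunit of casein kinase 2, had 5.14, 5.35 and 5.41 FPKM in Nat10-CKO and 6.19, 7.44 and 6.86 FPKM in Nat10flox/flox libraries (0.776-fold, limma adjusted p = 0.0414). Its call was lost without any one library, with adjusted p of 0.0682, 0.0978 and 0.0757 without Nat10-CKO replicate 1, 2 and 3 and of 0.0532, 0.146 and 0.115 without Nat10flox/flox replicate 1, 2 and 3.

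Large-subunit assembly factors were called higher for 43 of 51 tested genes and lower for 1 (Gnl3l, 0.733-fold), with a median log2 fold change of 1.23. Genes of the 32 small-subunit ribosomal proteins themselves were called higher for 0 and lower for 4 (Rps29, Rps21, Rps4x and Rps9) by limma, with a median log2 fold change of -0.06, beside 24.4% of all tested genes called higher and 16.0% lower. The lower count (12.5% of the list) is near that background. At an unadjusted p under 0.05 the counts were 0 higher and 5 lower, and limma-voom on recovered reads also called 0 higher and 4 lower. Their summed level was 7247, 5828 and 5426 FPKM in Nat10-CKO and 6258, 6383 and 6665 FPKM in Nat10flox/flox libraries, so the groups overlapped where those of the assembly factors did not. Differences between the lists were not tested.

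**Figure D4:**
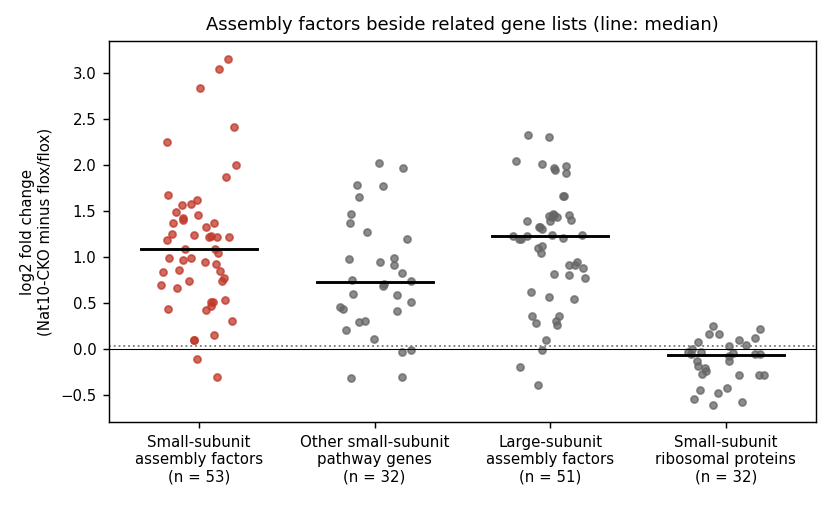
Log2 fold change (Nat10-CKO minus Nat10flox/flox) of each tested gene in 4 lists: the 53 assembly factors (red) and, in grey, 32 other small-subunit pathway genes, 51 large-subunit assembly factors and 32 small-subunit ribosomal protein genes. Horizontal lines are medians of 1.09, 0.73, 1.23 and -0.06, and the dotted line is the median of all tested genes at 0.03.

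The scaling of the libraries moved the overall level of the fold changes, by amounts that differed between genes. Leaving out mitochondrially encoded genes moved the median log2 fold change of all tested genes to -0.12, with 41.8% of calls higher in place of 60.4%. The members then had 45 higher and 1 lower, with a median of 0.92, beside 17.65% of all genes tested in that setting called higher. Rescaling protein-coding genes to one total per library moved the median of all genes to 0.16, with 72.2% of calls higher. That rescaling gave 48 members higher and 0 lower, with a median of 1.22, beside 30.4% of all tested genes called higher.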

How the data were processed

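The deposited values are FPKM, 1 column per library. Per the series' design text and the submitters' processing notes, HISAT2 2.2.1 placed the reads on GRCm39 and featureCounts 2.0.6 counted them per gene. The strand setting and the definition of gene length are not given in the sources used here. Multiplied by gene length, all values (100%) were whole multiples of 1 read to within 0.01 read, and the value of that read over 1 kb ran from 0.0246 to 0.0316 FPKM across libraries.

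The comparison used limma 3.58.1 (R 4.3.3, eBayes with a trend, two-sided) on log2(FPKM + 1), fitted on the 11996 genes with a mean of at least 1 FPKM. This scale understates the change of low genes. Log2 fold changes are Nat10-CKO minus Nat10flox/flox, and a fold is the mean FPKM of one group over that of the other. The fit was also run on simulated counts with a single dispersion and few changed genes. That setting has no libraries that stand apart and no shift in scaling, so it gives no error rate for these data.

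The members, roles and comparison lists were chosen with earlier results of these data known. In each role the 3 members with the smallest adjusted p were named with all values, besides every member lower or not called, the extremes, Nat10, and of the other pathway genes the 4 with the smallest adjusted p and any lower. Genes named beyond this rule were chosen after their values were seen. Promoter windows are RefSeq's, matched to GRCm39. Plots were made in Python 3.11.15 by matplotlib 3.10.9.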

Additional observations from a re-analysis of the deposited data

How the results depend on the processing

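Of the 47 members called higher, 43 stayed so in each alternative in which they were tested, of 19 that leave aside the minimum fold change below; at the filter of 5 FPKM 44 of the 53 members were tested. The exceptions were Wdr3, Emg1, Ddx47 and Krr1. Leaving out each library in turn gave 44 to 46 members higher and 0 to 1 lower, a median log2 fold change of 1.05 to 1.11, 2126 to 3123 genes higher and 1207 to 1924 lower over all tested, and 0 other pathway genes lower; the cause was not tested. The median of the members was 1.27 with a pseudocount of 0.1, 0.92 without mitochondrially encoded genes and 1.28 with limma-voom on recovered reads. A minimum absolute log2 fold change of 1 left 28 members and 9 other pathway genes higher and 0 of each lower, and 960 genes higher and 560 lower over all tested. Genes lower over all tested were 1159 with a filter of 5 FPKM, 2938 without mitochondrially encoded genes and 3007 with array weights. Members lower were 0 with protein-coding genes rescaled, limma-voom or the replicate block. Other pathway genes lower were 0 without a filter, with a filter of 5 FPKM, with protein-coding genes rescaled, without a trend and with the block, and 2 without mitochondrially encoded genes, under quantile normalization and with array weights. The sign turned for Nol10 (-0.049) and Rcl1 (-0.025) without mitochondrially encoded genes, for Rcl1 (-0.050) without both libraries that stand apart, and for Wdr36 (0.029) with protein-coding genes rescaled; none of these 3 passed the threshold in either case.

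Same-numbered libraries had correlations of deviations of 0.065, 0.037 and 0.105, and not every library correlated best with its own number, so the numbers were not taken as pairs. With the replicate block 45 members were higher and 0 lower, Wdr3 (limma adjusted p = 0.068) and Emg1 (0.0631) no longer being called. Of all tested genes, 22.2% were called higher with the block. The groups hold 3 libraries each, and the least covered member had 137 reads in a library.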
